A study of Mus musculus with 9 samples.

Results

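The genes described here are 36 mouse genes of programmed cell death, a list made up of the BCL-2 family, the caspases, the death receptor Fas with its partners, and their mitochondrial and nuclear co-workers. The members were taken by gene symbol from a table of FPKM, a level of RNA scaled for gene length and for the depth of the library. All 36 had exactly 1 row among the 56289 gene identifiers, and 33 of them were among the 13026 genes tested. The 3 not tested were the BH3-only genes Bik and Hrk and the inflammatory caspase gene Casp1.

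The libraries came from cells labelled RAW264.7, a macrophage-like line of the BALB/c strain, with 3 libraries in each of 3 groups. One group was untreated, and for it the labels give no time in culture. The TNF group had TNF-α (tumour necrosis factor alpha) for 24 h, and the TNF plus WBG group had Wang Bi granules, a Chinese herbal preparation, together with TNF-α for 24 h. No dose is given in the labels. Time in culture and treatment therefore cannot be told apart in the comparisons with untreated cells. Nothing says whether the 3 libraries of a group are separate cultures, so the p-values speak of the spread among these libraries, which may be technical.

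The profile of the libraries did not match the labelled cell type. Of 10 macrophage markers only Cd14 and Cd68 reached a mean of 1 FPKM, and 4 were listed at 0 in all 9 libraries. These 4 were Ptprc, Itgam, Adgre1 and Tyrobp. Of 10 fibroblast markers 8 reached that mean, with means from 2.29 FPKM (Dcn) to 931 FPKM (Col1a1). Thy1 (mean 0.01 FPKM) and Lum (0 in all 9 libraries) did not. The summed level of the macrophage markers was 5.87 to 7.23 FPKM in untreated, 6.86 to 7.85 in TNF and 7.77 to 10.2 in TNF plus WBG libraries, against 2718 to 3012 FPKM for the fibroblast markers over all libraries. With TNF the fibroblast markers Col1a1 and Col1a2 were called higher and Pdgfrb and Postn lower, and with TNF plus WBG against untreated Cd14 was called higher (log2 0.45) and Pdgfrb and Postn lower. The part of these markers in the results was not tested. The deepest library (untreated replicate 1) was 1.38 times as deep as the shallowest, judged from the steps of low FPKM values.

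Apoptosis runs along a pair of routes. In the mitochondrial route, BH3-only proteins sense stress and neutralise BCL-2-like survival proteins or activate Bax and Bak1, which open pores in the outer mitochondrial membrane and let cytochrome c reach Apaf1 and caspase-9. In the death receptor route, ligation of Fas or of a TNF receptor recruits Fadd and caspase-8, which cuts other caspases and the BH3-only protein Bid, while Cflar (c-FLIP) holds caspase-8 in check. Fibroblasts and macrophages exposed to TNF usually survive, because NF-kB induces survival genes along with inflammatory ones.

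The promoter windows of 3 genes are shown first, because Fas and Casp4 had the largest rises of the list and Bbc3 is the other risen member whose window holds a match to the NF-kB motif. Each window runs from 250 bases before to 50 bases after a RefSeq start (GRCm38.p6), and is printed in the gene's own direction. Capitals mark matches to the NF-kB consensus motif of 10 bases, searched on both strands, with overlapping matches joined.

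Casp4, chr9:5308599-5308898, + strand: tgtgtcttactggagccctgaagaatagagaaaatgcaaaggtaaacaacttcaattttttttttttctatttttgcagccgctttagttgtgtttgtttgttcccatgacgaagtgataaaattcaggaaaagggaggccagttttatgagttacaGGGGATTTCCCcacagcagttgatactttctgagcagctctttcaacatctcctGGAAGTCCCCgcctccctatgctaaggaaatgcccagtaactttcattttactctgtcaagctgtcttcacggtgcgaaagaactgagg

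Bbc3, chr7:16309333-16309632, + strand: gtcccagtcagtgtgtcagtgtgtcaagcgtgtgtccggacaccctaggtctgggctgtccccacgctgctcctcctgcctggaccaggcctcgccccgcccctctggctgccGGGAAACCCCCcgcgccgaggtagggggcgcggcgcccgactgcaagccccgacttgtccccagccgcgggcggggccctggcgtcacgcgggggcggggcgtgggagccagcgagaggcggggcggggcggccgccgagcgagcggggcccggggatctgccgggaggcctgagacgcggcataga

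Fas, chr19:34290409-34290708, + strand: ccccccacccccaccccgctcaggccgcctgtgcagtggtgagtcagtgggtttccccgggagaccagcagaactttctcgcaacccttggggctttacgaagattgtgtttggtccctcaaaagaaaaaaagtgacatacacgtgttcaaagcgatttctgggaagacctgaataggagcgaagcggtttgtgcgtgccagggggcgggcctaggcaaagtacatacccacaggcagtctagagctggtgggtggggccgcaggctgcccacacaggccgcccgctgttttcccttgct

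The Casp4 window holds 3 match positions, 2 of them overlapping in 1 run, with first bases 93, 92 and 39 bases before the start, and the window of its other RefSeq start, which overlaps this one, holds the same matches. The Bbc3 window holds 2 overlapping positions, 137 and 136 bases before the start, and the other 2 annotated starts of Bbc3 have none. No match lies in the Fas window printed. Of the 36 members, 33 had at least 1 RefSeq window, and 8 had a match in at least 1 of them. Among all 27025 genes with a window 9.55% had one, as did 8.49% of 32544 distinct windows. Of the 7 members that rose with TNF, Casp4 and Bbc3 were the 2 with a match. The other 6 with a match were Aifm1, Bcl2l1, Birc5, Bmf, Hrk and Xiap, of which none passed in any comparison. A match is only a description of the letters in the window.

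In untreated cells the members spanned a wide range of levels. Bax had the highest mean, at 65.8 ± 2.95 FPKM (SD, n = 3), followed by the survival gene Mcl1 (60.7 ± 0.46 FPKM) and by Casp12 (52.8 ± 5.77 FPKM). The untreated libraries of these 3 genes did not overlap: the lowest Bax library (63.0 FPKM) lay above the highest of Mcl1 (61.1 FPKM), and the highest of Casp12 (58.4 FPKM) lay below the lowest of Mcl1 (60.2 FPKM). A mean of at least 10 FPKM was found for 17 members, 16 lay between 1 and 10 FPKM, and 3 lay below 1 FPKM. Of the survival genes, Mcl1 stood far above Bcl2l2 (14.6 ± 0.15 FPKM), Bcl2l1, which encodes BCL-XL (7.13 ± 0.35 FPKM), and Bcl2 itself (4.72 ± 0.27 FPKM). Fas had the lowest mean of the members tested, 1.17 ± 0.15 FPKM.

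**Figure D1:**
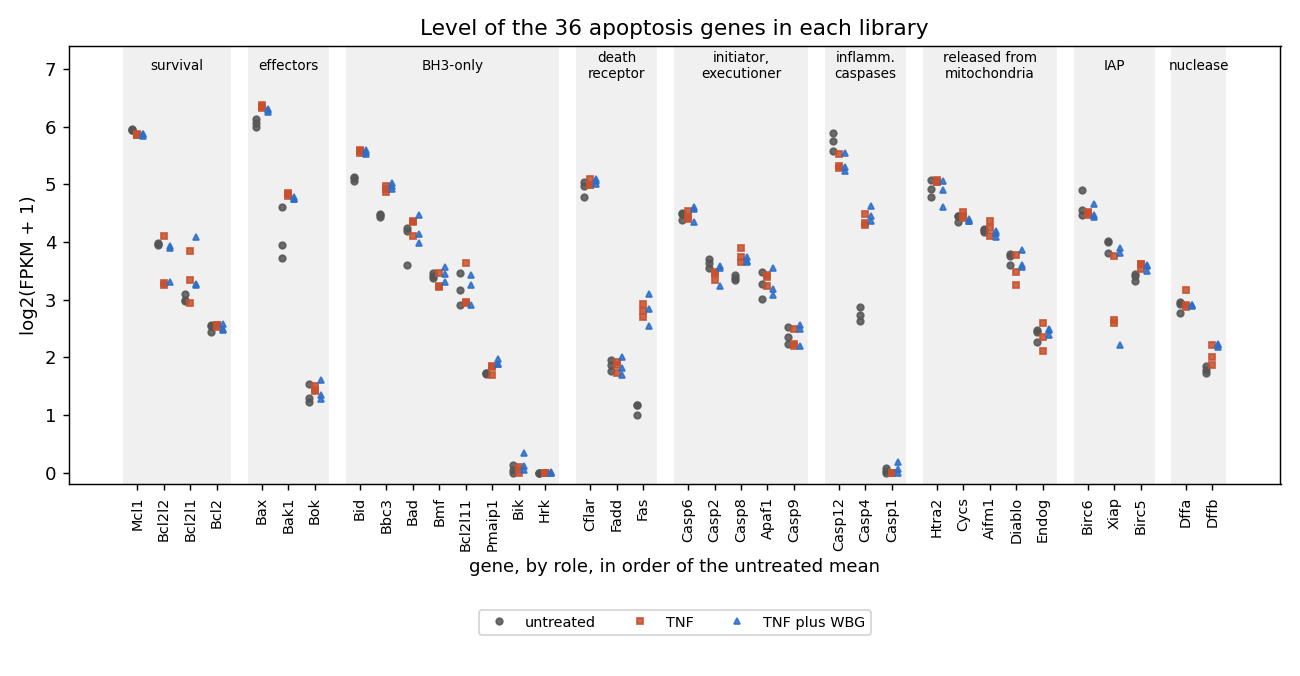
Level of each of the 36 genes in each of the 9 libraries, as log2 of FPKM plus 1 (vertical axis), with genes on the horizontal axis by role and by untreated mean; grey circles are untreated, orange squares TNF and blue triangles TNF plus WBG libraries. Fas and Casp4 are the genes whose treated libraries stand clearest above the untreated ones, and Bik, Hrk and Casp1 lie at or near 0.

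The first comparison set TNF against untreated cells. With TNF, 7 members were higher: Fas, Casp4, Bid, Bbc3, Bax, Bak1 and Casp8. They encode a death receptor, an inflammatory caspase, a pair of BH3-only proteins, both main pore formers and the initiator caspase of the receptor route. They make up 1 of the 3 genes of the receptor complex, 1 of 5 initiator and executioner caspases with Apaf1, 1 of 2 inflammatory caspases tested, 2 of 3 pore formers and 2 of 6 BH3-only genes tested. No member was lower. The test was limma on the log2 of FPKM plus 1, with the adjusted p (Benjamini-Hochberg, 13026 genes) required to be below 0.05.

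The 7 of 33 members called higher are 21.2%, where 6.43% of all genes tested were called higher. None was called lower by limma, where 4.21% of all genes were, and 2 were lower at an unadjusted p under 0.05, as were 10.9% of all genes. The members were listed with results of these libraries known, so their share is not independent evidence. The median log2 fold change of the 33 members was 0.07, with 21 above and 12 below 0, and that of all genes tested was 0.00. Fas passed the filter on low values (1 FPKM in 3 libraries) only with its treated libraries, since 2 of its 3 untreated libraries reached 1 FPKM. Each of the other members tested passed it on its untreated libraries alone.

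Fas is the receptor for Fas ligand and the only death receptor on the list. It was listed at 1.25, 0.998 and 1.25 FPKM in untreated replicates 1 to 3, at 5.49, 5.96 and 6.62 FPKM with TNF, and at 6.12, 7.53 and 4.85 FPKM with TNF plus WBG. Every treated library lay above every untreated one, and the treated groups overlapped. In bulk RNA more cells with a transcript and more of it per cell cannot be told apart, here and below. The TNF mean was 5.17-fold the untreated mean, with a log2 fold change of 1.70 ± 0.13 (standard error of the fit) and a limma adjusted p of 6.5e-05. Fasl, the gene of its ligand, was at most 0.03 FPKM in any library.

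The partners of Fas did not pass. Cflar, the decoy that blocks caspase-8, had the highest level of this role: 26.6, 30.2 and 32.0 FPKM in untreated, 30.9, 33.1 and 30.9 FPKM in TNF and 33.1, 31.2 and 32.2 FPKM in TNF plus WBG libraries. The ranges of the 3 groups overlapped, with a log2 fold change of 0.09 for TNF against untreated (95% interval -0.06 to 0.25, limma adjusted p = 0.437). Fadd, the adaptor that joins Fas to caspase-8, lay between 2.22 and 3.00 FPKM in all 9 libraries (log2 fold change -0.02, 95% interval -0.25 to 0.21).

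Casp8, the initiator caspase that Fadd recruits, was at 9.77, 9.34 and 9.14 FPKM untreated, 11.5, 13.9 and 12.3 FPKM with TNF, and 11.6, 11.8 and 12.4 FPKM with TNF plus WBG. All treated libraries lay above all untreated ones. The rise with TNF was 1.33-fold (log2 0.38 ± 0.07, limma adjusted p = 0.00831). Of the other initiator and executioner caspase genes, Casp6 had the highest level: 21.4, 21.6 and 19.9 FPKM untreated, 20.6, 22.2 and 20.2 FPKM with TNF, and 23.4, 22.7 and 19.3 FPKM with TNF plus WBG. Its log2 fold change with TNF was 0.00 (95% interval -0.17 to 0.17). Casp2, an initiator tied to DNA damage, was 9.16 to 10.2 FPKM with TNF and 10.6 to 12.1 FPKM untreated, ranges that do not overlap, but it did not pass (log2 -0.20, limma adjusted p = 0.248). Casp9, the initiator of the apoptosome (log2 -0.06), and Apaf1, its scaffold (log2 0.09), did not pass either.

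Casp4 is the mouse gene of caspase-11, which senses bacterial lipopolysaccharide in the cytosol and cuts gasdermin D. It was listed at 5.63, 5.16 and 6.30 FPKM in untreated libraries, at 21.4, 19.1 and 18.5 FPKM with TNF and at 19.5, 20.9 and 23.7 FPKM with TNF plus WBG. The lowest treated library lay far above the highest untreated one. The rise with TNF was 3.45-fold (log2 1.63 ± 0.09, limma adjusted p = 7.9e-06), the lowest adjusted p of the list.

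Of the other inflammatory caspase genes, Casp12 did not pass and Casp1 was too low to test. Casp12, a caspase of the endoplasmic reticulum in mice, was 58.4, 46.8 and 53.2 FPKM untreated, 45.1, 38.6 and 37.8 FPKM with TNF, and 38.4, 45.9 and 36.7 FPKM with TNF plus WBG. Each treated library lay below each untreated one, but the log2 fold change of -0.37 ± 0.11 did not pass (limma adjusted p = 0.0635). It passed without untreated replicate 2 (adjusted p = 0.0456) and without TNF plus WBG replicate 2 (0.0442). Casp1, the caspase of canonical inflammasomes and the one that matures interleukin-1β, was listed at 0 in all 3 TNF libraries and at no more than 0.14 FPKM in any library.

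Among the pore formers, Bax was 63.0, 68.8 and 65.5 FPKM untreated, 81.8, 79.0 and 80.2 FPKM with TNF, and 75.5, 78.1 and 77.0 FPKM with TNF plus WBG. The 3 groups did not overlap, with TNF highest. The rise with TNF was 1.22-fold (log2 0.29 ± 0.04, limma adjusted p = 0.00191). Bok, an effector with little need for BH3-only activators, had group means of 1.57 to 1.73 FPKM and did not pass.

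Bak1, the effector that resides on mitochondria, was 23.4, 14.5 and 12.1 FPKM untreated, 27.4, 26.8 and 27.8 FPKM with TNF, and 26.0, 25.8 and 26.6 FPKM with TNF plus WBG. Untreated replicate 1 stood nearer to the treated libraries than to the other untreated ones. The rise with TNF was 1.64-fold (log2 0.73 ± 0.18, limma adjusted p = 0.0379). Leaving out any 1 library other than untreated replicate 1 ended the call, with adjusted p from 0.0578 to 0.114. Leaving out untreated replicate 1 gave a log2 fold change of 0.99 and an adjusted p of 0.000134.

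Among the BH3-only genes, Bid and Bbc3 rose. Bid, which caspase-8 cuts to link the receptor route to mitochondria, was 32.5, 34.1 and 33.7 FPKM untreated, 47.0, 47.4 and 45.8 FPKM with TNF, and 45.1, 46.2 and 47.5 FPKM with TNF plus WBG. It rose 1.40-fold with TNF (log2 0.47 ± 0.04, limma adjusted p = 6.8e-05). Bbc3, which encodes PUMA, a BH3-only protein induced by p53 and other stress factors, was 21.5, 21.03 and 20.6 FPKM untreated, 29.4, 28.2 and 30.3 FPKM with TNF, and 31.4, 29.3 and 30.4 FPKM with TNF plus WBG. It rose 1.39-fold with TNF (log2 0.46 ± 0.04, limma adjusted p = 0.000228). In both genes the treated libraries all lay above the untreated ones, and TNF and TNF plus WBG overlapped.

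The other 4 BH3-only genes tested did not pass. Pmaip1 (NOXA) was 2.24 to 2.60 FPKM with TNF against 2.28 to 2.33 FPKM untreated (log2 0.07, 95% interval -0.10 to 0.23), and 2.701 to 2.94 FPKM with TNF plus WBG. Bmf, a sensor tied to the cytoskeleton, had a log2 fold change of -0.11, Bcl2l11 (BIM) of -0.00 and Bad, which growth factor signals restrain by phosphorylation, of 0.26, and the intervals of all 3 held 0. Bik lay at or below 0.26 FPKM in every library, and Hrk was listed at 0 in 8 of 9 libraries with 0.01 FPKM in TNF plus WBG replicate 1.

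The BCL-2-like survival genes among the members did not rise with TNF by the test. Mcl1, a short-lived survival protein, was 61.1, 60.2 and 60.8 FPKM untreated, 57.9, 57.1 and 57.1 FPKM with TNF, and 57.6, 56.5 and 57.9 FPKM with TNF plus WBG. All treated libraries lay just below all untreated ones, but the difference of -0.08 ± 0.03 (log2) did not pass (limma adjusted p = 0.145). Bcl2 was 4.42 to 4.98 FPKM over all 9 libraries (log2 0.04, 95% interval -0.11 to 0.18). The ratio of Bax to Mcl1 FPKM was 1.03, 1.14 and 1.08 in untreated, 1.41, 1.38 and 1.41 in TNF and 1.31, 1.38 and 1.33 in TNF plus WBG libraries. The ratio of Bax to Bcl2 FPKM was 12.8, 15.6 and 13.6 in untreated, 16.6, 16.6 and 16.4 in TNF and 15.2, 17.0 and 17.0 in TNF plus WBG libraries, so that untreated and TNF plus WBG overlapped on this measure. These are ratios of RNA levels per length and were not tested.

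None of the 5 genes of proteins released from mitochondria passed. Htra2, a protease that binds inhibitors of apoptosis, had the highest level of these: 26.5, 32.7 and 29.2 FPKM untreated, 32.6, 31.9 and 31.9 FPKM with TNF, and 23.5, 32.2 and 29.0 FPKM with TNF plus WBG. Cycs, the somatic cytochrome c gene, was 19.4 to 22.0 FPKM in all 9 libraries, with a log2 fold change of 0.05 (95% interval -0.06 to 0.15). Diablo, which encodes the inhibitor-binding protein SMAC (log2 -0.21), Aifm1, apoptosis-inducing factor (0.03), and Endog, a mitochondrial nuclease (-0.04), had intervals that held 0.

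Of the inhibitors of apoptosis among the members, Birc6, a very large ubiquitin ligase, had the highest level: 21.1, 22.5 and 28.7 FPKM untreated, 21.8, 21.2 and 21.9 FPKM with TNF, and 24.2, 21.2 and 20.6 FPKM with TNF plus WBG. The groups overlapped (log2 -0.14 with TNF, limma adjusted p = 0.479). Birc5 (survivin), which serves both cell division and caspase control, was 9.06 to 9.90 FPKM untreated, 10.6 to 11.3 FPKM with TNF and 10.3 to 11.1 FPKM with TNF plus WBG. Its ranges did not overlap between untreated and TNF, but it did not pass (log2 0.19 ± 0.06, limma adjusted p = 0.0627). Of 10 genes of cycling cells 8 were above 0 in that comparison, with a median log2 fold change of 0.19. Of all 13026 genes tested, 6515 were above 0. Among the 10, the topoisomerase gene Top2a alone was called higher, where 6.43% of all genes tested were. The summed level of these 10 was 100.0 to 119.9 FPKM untreated and 109.3 to 120.0 FPKM with TNF. Untreated replicate 1 alone held the high untreated sum, with Cdk1 at 29.4 FPKM against 11.1 and 14.0 FPKM in the other untreated libraries, and without Cdk1 the sums were 86.1 to 90.5 FPKM untreated and 95.0 to 105.0 FPKM with TNF. The part of these genes in the Birc5 values was not tested.

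Dffb encodes the nuclease that cuts DNA between nucleosomes, and Dffa the inhibitor that caspases remove from it. Dffa was 6.76, 5.80 and 6.61 FPKM untreated, 6.35, 6.48 and 7.97 FPKM with TNF, and 6.40, 6.54 and 6.52 FPKM with TNF plus WBG, and did not pass. Dffb was 2.31, 2.58 and 2.45 FPKM untreated, 2.67, 3.01 and 3.65 FPKM with TNF, and 3.72, 3.62 and 3.54 FPKM with TNF plus WBG. The untreated libraries lay below all treated ones, and the difference between TNF and untreated did not pass (log2 0.25 ± 0.09, limma adjusted p = 0.139).

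**Figure D2:**
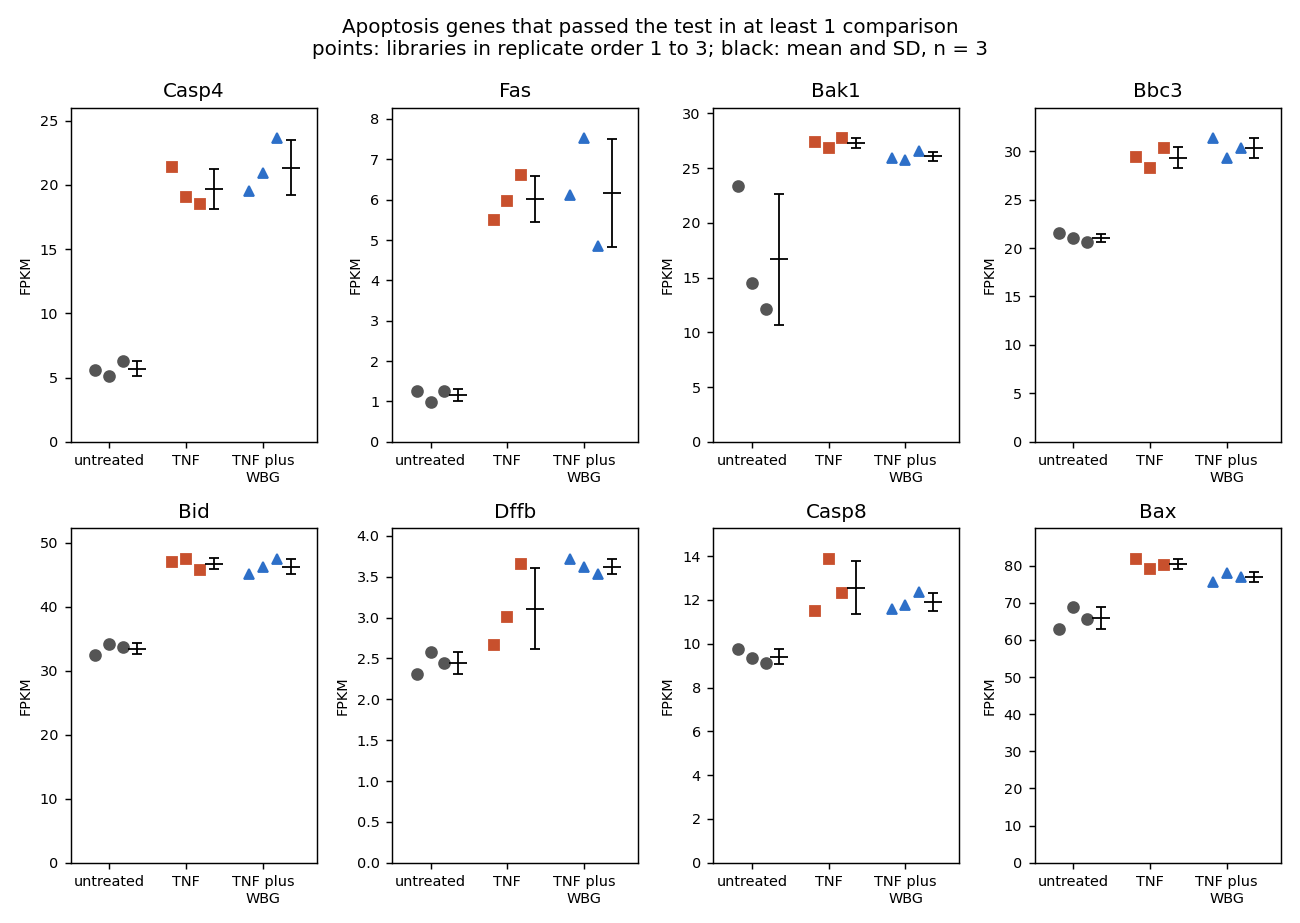
FPKM (vertical axis, from 0) of the 8 genes that passed the test in at least 1 comparison, by group (horizontal axis); each point is a library, and the black bar is the mean with SD, n = 3. In all 8 panels the treated libraries lie above the untreated ones, and the untreated libraries of Bak1 spread from 12.1 to 23.4 FPKM. The 8 genes were picked by the test. How many of all genes tested separated from untreated in this way was not counted.

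The second comparison set the granules with TNF against TNF alone. No member passed. Among the 7 genes that TNF raised, group means with and without WBG were 6.17 and 6.03 FPKM for Fas, 21.4 and 19.7 FPKM for Casp4, and 11.9 and 12.6 FPKM for Casp8. By limma 0 of 33 members were called higher and 0 lower, where 0.0691% and 0.0307% of all genes tested were. With so low a share over all genes, a count of 0 calls among 33 says little about this set. No member reached an unadjusted p under 0.05, where 9.06% of all genes tested did. The lowest adjusted p of the list was 0.63.

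The intervals, like the p-values, rest on the spread among these libraries, which may be technical, and each was set for 1 gene alone. For 29 of the 33 members the 95% interval of the log2 difference lay between -0.5 and 0.5. Fas had a difference of 0.01 (95% interval -0.29 to 0.32), Casp4 of 0.11 (-0.10 to 0.32), Bid of -0.01 (-0.10 to 0.07) and Bbc3 of 0.05 (-0.05 to 0.15). Bax was lower in each TNF plus WBG library than in each TNF library, by a log2 difference of -0.06 (95% interval -0.15 to 0.03), and did not pass. The groups also failed to overlap for Bak1 (-0.06) and Cycs (-0.08), both lower with WBG, and for Pmaip1 (0.13), higher with it, and none of these passed. How many of all genes tested separated in this way was not counted, so no effect of WBG is read from Bax or these genes. The 4 members with an interval beyond that range were Xiap, Bcl2l1, Bcl2l2 and Bcl2l11, whose libraries scattered within groups, and for them the data do not bound a change to it. The estimates of all members ran from -0.19 (Htra2) to 0.30 (Xiap).

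**Figure D3:**
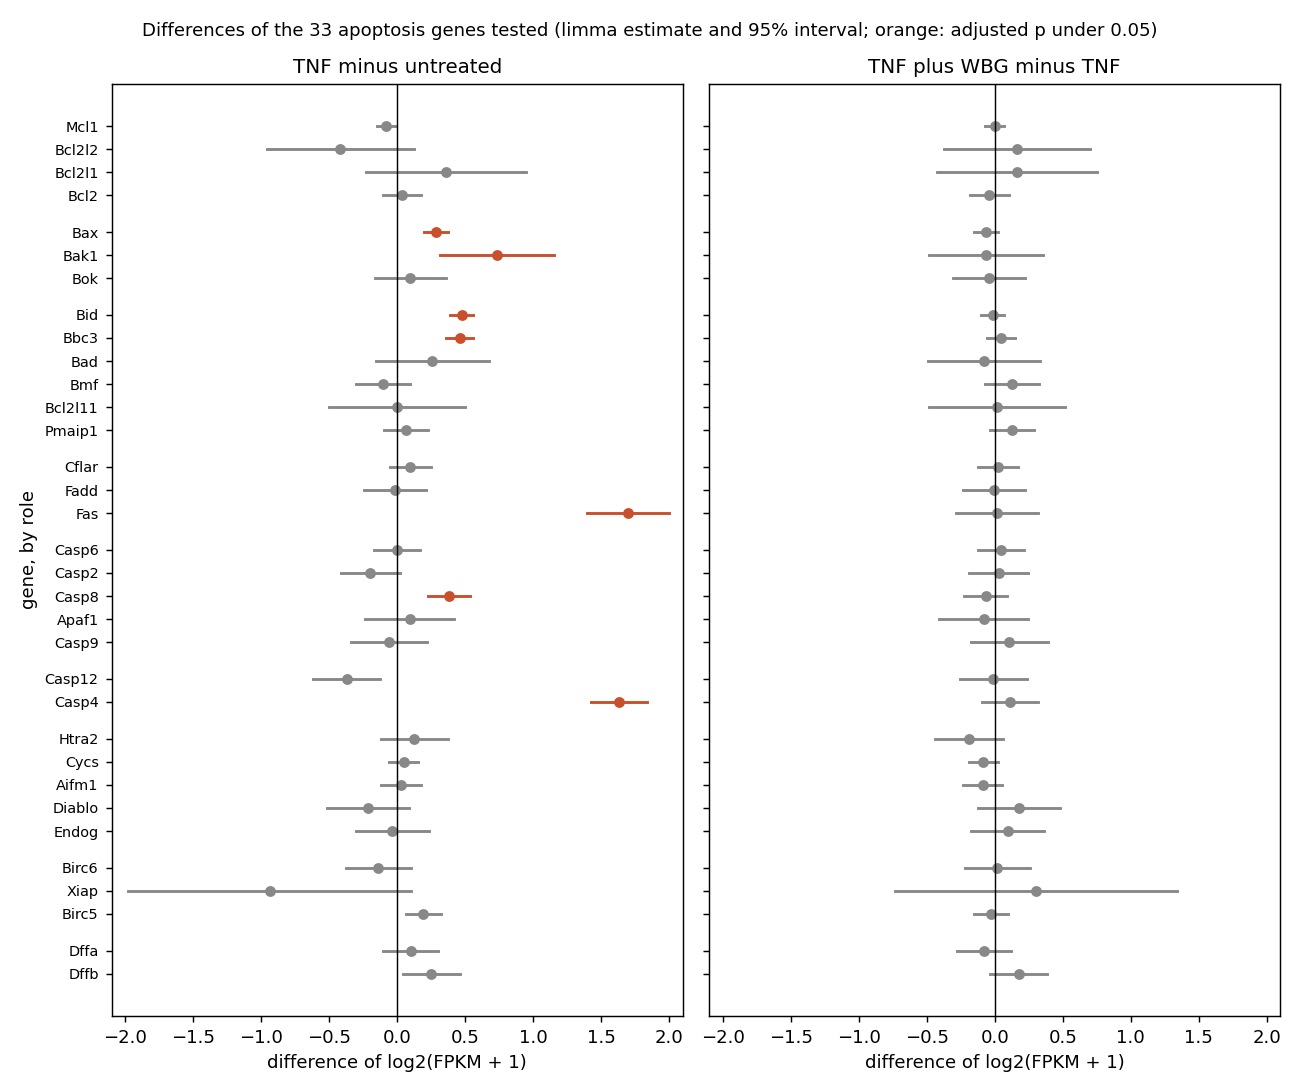
Differences in log2 of FPKM plus 1 (horizontal axis) of the 33 genes tested, by role (vertical axis), for TNF minus untreated (left) and TNF plus WBG minus TNF (right); points are limma estimates, lines 95% intervals, and orange marks an adjusted p under 0.05. On the left 7 genes are orange and all 7 lie above 0, and on the right none is.

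TNF plus WBG against untreated shares its untreated libraries with the first comparison, so it is not a separate test of TNF. In it 7 members were higher and 0 lower by limma, where 5.52% and 3.67% of all genes tested were, and 2 were lower at an unadjusted p under 0.05, as were 10.5% of all genes. Fas (log2 1.71 ± 0.13), Casp4 (1.74 ± 0.09), Bbc3 (0.51 ± 0.04), Bid (0.46 ± 0.04), Casp8 (0.31 ± 0.07) and Bax (0.22 ± 0.04) passed. Dffb passed as well, 1.48-fold (0.42 ± 0.09, limma adjusted p = 0.0212), and Bak1 did not (0.67 ± 0.18, limma adjusted p = 0.0592). Dffb passed here and not with TNF alone, but TNF plus WBG and TNF did not differ by the test (log2 0.18, 95% interval -0.03 to 0.39). The calls of Dffb and Casp8 were each lost when untreated replicate 3 or replicate 1 or 2 of TNF plus WBG was left out (adjusted p up to 0.0821, for Casp8). That of Dffb was also lost without untreated replicate 1 (0.0744), and that of Casp8 without untreated replicate 2 or TNF plus WBG replicate 3. Bak1 passed without untreated replicate 1 (adjusted p = 0.000255), and Casp12 was lower without untreated replicate 2 (0.0441) or TNF plus WBG replicate 2 (0.0367).

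A further 60 genes of the same pathways that are not members, among them TNF receptors, adaptors and gasdermins, give the surroundings, and 40 of them were tested. With TNF 8 of the 40 were higher and 3 lower, where 6.43% and 4.21% of all genes tested were, with a median log2 fold change of 0.07. The highest among them were Tnfaip8, a survival gene induced by NF-kB (log2 0.86), Ier3, an immediate early survival gene (0.70), and Traf2, an adaptor of the TNF receptors (0.56). The falls were those of the death receptor genes Tnfrsf25 (-0.51) and Tnfrsf21 (-0.24) and of the co-chaperone Bag3 (-0.14). Another death receptor gene, Tnfrsf10b, named here after its values were seen, was among those higher (0.38 with TNF and 0.36 with TNF plus WBG, both against untreated). Birc2, an inhibitor of apoptosis gene also named after its values were seen, was called higher in both comparisons (0.39 and 0.24). Of the other such genes in this list, Naip2 did not pass in either (0.09 and 0.03). Birc3, Naip1, Naip5 and Naip6 were too low to test. Against untreated, TNF plus WBG gave 6 higher, with Ier3 (1.20), Traf2 (0.54) and Gsdmd (0.49), the pore-forming substrate of caspase-11, at the top, and 2 lower, Tnfrsf25 (-0.61) and Tnfrsf21 (-0.39), where 5.52% and 3.67% of all genes were. Between TNF plus WBG and TNF limma called 0 of 40, where 0.0691% of all genes were called higher and 0.0307% lower, and 9 of 40 (22.5%) had an unadjusted p under 0.05, against 9.06% of all genes. This list was also drawn up with results of these libraries known.

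Some members stood at clearly different levels in libraries of 1 group. Among the 25 members with a mean of at least 5 FPKM, 6 had a group whose highest library was over 1.5 times its lowest, 24%, against 10.7% of 9118 tested genes at that level. These were Xiap, Bcl2l1, Bak1, Bcl2l2, Bcl2l11 and Bad, and they are described here because of this spread, seen in the data. Xiap, an inhibitor that binds caspases, was 13.0, 15.3 and 15.0 FPKM untreated, 5.25, 12.6 and 5.06 FPKM with TNF, and 13.9, 3.62 and 13.0 FPKM with TNF plus WBG. All 3 TNF libraries lay below the untreated ones. In 3 of the 6 treated libraries it lay at or below 5.25 FPKM, and in the other 6 of the 9 libraries at or above 12.6 FPKM, with none between. Its difference between TNF and untreated was large and did not pass (log2 -0.94, 95% interval -1.98 to 0.10, limma adjusted p = 0.254).

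Bcl2l2, the BCL-W gene, was 14.5, 14.8 and 14.6 FPKM untreated, 8.54, 16.2 and 8.72 FPKM with TNF, and 13.8, 14.3 and 8.94 FPKM with TNF plus WBG. Again 3 treated libraries formed a lower level, near 9 FPKM, and 2 of these, TNF replicates 1 and 3, were low for Xiap too. Without TNF replicate 2 it was called lower with TNF (log2 -0.70, limma adjusted p = 0.0478), against -0.42 and 0.331 with all libraries. Bcl2l1 (BCL-XL) was 7.53, 6.86 and 7.01 FPKM untreated, 13.3, 6.71 and 9.19 FPKM with TNF, and 8.59, 16.0 and 8.70 FPKM with TNF plus WBG, with 1 high library in each treated group. Its difference between TNF and untreated was 0.36 (log2, 95% interval -0.23 to 0.94). Bcl2l11 scattered in all 3 groups (6.46 to 11.4 FPKM), and Bad had 1 low library, untreated replicate 1 (11.2 FPKM, against 14.8 to 21.1 FPKM in the others). In GENCODE M21 these genes have several annotated transcripts, 11 for Xiap, 9 for Bcl2l1, 5 for Bcl2l2, 4 for Bak1, 8 for Bcl2l11 and 9 for Bad. Whether the values depend on how fragments were shared among transcripts was not tested.

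**Figure D4:**
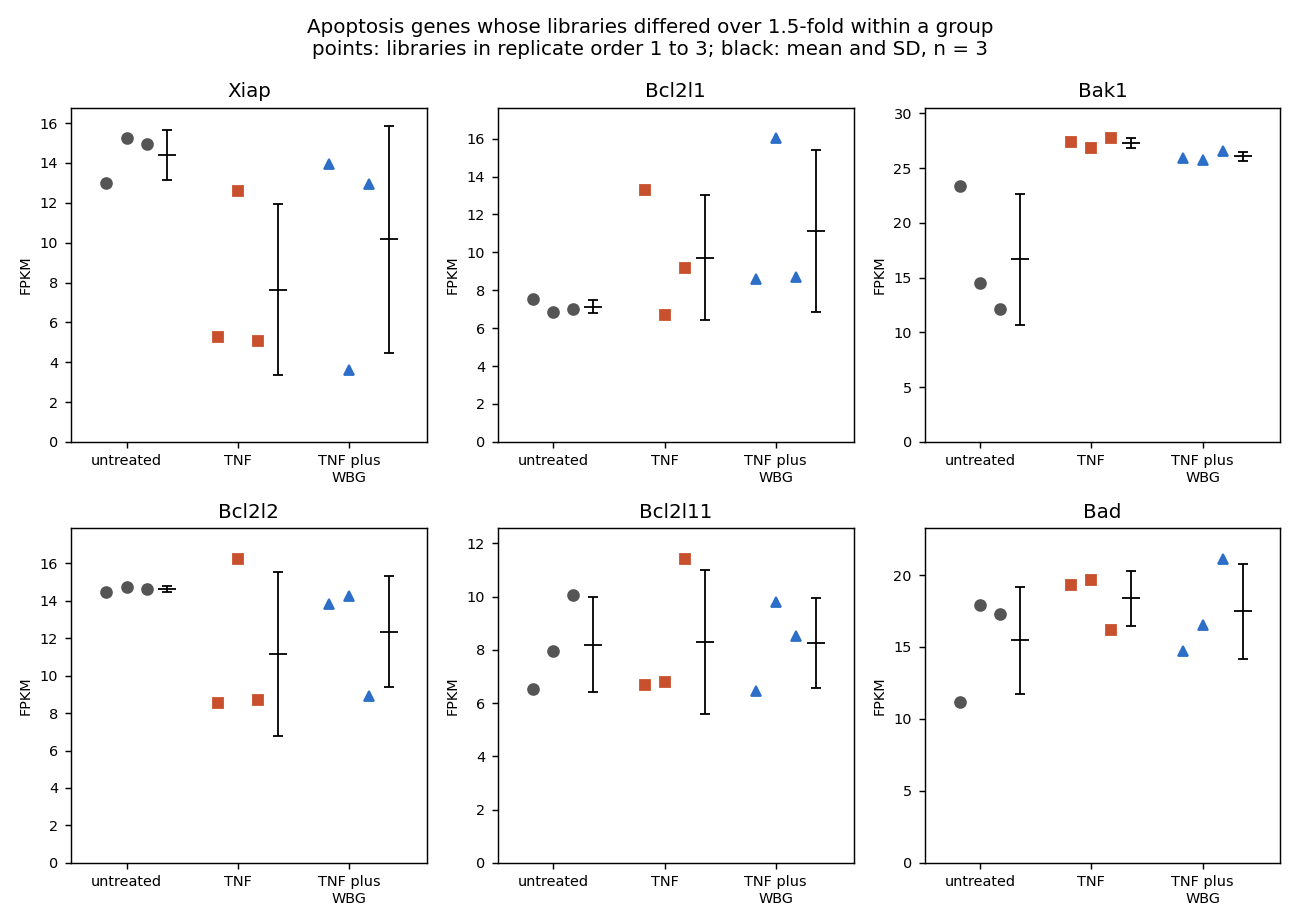
FPKM (vertical axis, from 0) by group (horizontal axis) of the 6 genes with a mean of at least 5 FPKM whose libraries differed over 1.5-fold within a group; each point is a library, and the black bar is the mean with SD, n = 3. Xiap and Bcl2l2 fall on a pair of levels among treated libraries, from 3.62 to 5.25 and from 12.6 to 13.9 FPKM for Xiap.

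Several members share exon sequence with another gene in GENCODE M21, and whether counting used strand is not given in the sources used here. Of the genes that rose, Bid shares 17.7% of its exon bases with Bcl2l13 on the opposite strand, whose mean over the 9 libraries was 10.4 FPKM. Bak1 shares 18.2% with 1 entry of Ggnbp1 (mean 1.55 FPKM) and Bax 12.2% with Gm45808 (listed at 0). Bcl2l2 shares 13.3% with Gm20521 on the same strand (mean 2.15 FPKM). Fas, Casp4, Casp8 and Bbc3 share none. Some members that did not pass share more, on the opposite strand unless stated. Htra2 shares 25.6% with Aup1 (mean 60.9 FPKM) and 18.2% with Loxl3 (5.27 FPKM). Endog shares 35.7% with Spout1 (7.71 FPKM), and Bad 20.5% with Gpr137 (14.4 FPKM). Diablo shares 21.5% with B3gnt4 (0.17 FPKM) and, on the same strand, 19.3% with Gm49027 (1.45 FPKM). Whether these overlaps enter the values was not tested.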

How the data were processed

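Poly-A RNA of 9 libraries (3 per group) was sequenced from both ends, per the labels' protocols. The values are FPKM per Ensembl gene as deposited by the authors. For the genome build, the annotation, the aligner and the counter of this table the entry is: not given in the sources used here. The only coordinates printed are those of RefSeq promoter windows. Sequences are RefSeq windows of GRCm38.p6, matched by symbol. GENCODE M21 gave symbols (55144 of 56289 identifiers matched), exon overlaps and transcript numbers. The table holds no counts. Low FPKM of single-exon genes lay on steps (26.8 to 34.2% lay at most 0.02 from a whole number of steps, where even spacing gives 4%), which gave the relative depth only.

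Genes with at least 1 FPKM in at least 3 of the 9 libraries were kept. limma 3.58.1 under R 4.3.3 was run on log2 values (FPKM, pseudocount 1), trend on, group as the only term, all 9 libraries in 1 fit, two-sided, Benjamini-Hochberg over all 13026 genes. Fold changes of low genes are understated on this scale, and fold values are ratios of mean FPKM. The fit was also run on simulated data with normal noise drawn from the fitted spread of each gene. That run could not check whether the real values meet the assumptions of the fit. All members are accounted for. A member has its value in every library if it was called in any comparison or had the highest mean of its role, and other values shown per library were picked after they were seen. Up to 3 called pathway genes per direction are named. The members and lists were chosen with earlier results of these data known. Alternatives were pseudocounts of 0.1 and 5, no filter, a mean of at least 5 FPKM, median-ratio scaling, quantile normalization, no trend, only the 6 libraries compared, a replicate block and omission of each library. Figures used python 3.11.15 and matplotlib 3.10.9.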

Additional observations from a re-analysis of the deposited data

How the results depend on the processing

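Over the 18 alternatives the members called higher numbered 6 or 7 for TNF against untreated and 5 to 7 for TNF plus WBG against untreated, and 0 in either direction for TNF plus WBG against TNF. Omission of single libraries gave 6 to 7, 5 to 7 and 0. Members called lower, 0 otherwise, ranged from 0 to 1 over the omissions in both comparisons with untreated. With the replicate block 6 were called higher, 0 lower, in each of these (Bak1 was not called for TNF against untreated, adjusted p = 0.052, nor Casp8 for TNF plus WBG against untreated, adjusted p = 0.0511). The labels give the groups the same replicate numbers, but same-numbered libraries did not deviate together (correlations of -0.07 to 0.11 over genes, 1 of 9 pairs over 0.1), so the block carries no known pairing. The calls of Casp4, Bid, Bbc3 and Bax held in all 18 alternatives in both comparisons with untreated, that of Casp8 in all 18 for TNF against untreated, and that of Fas in all 17 that could test it. At a mean of at least 5 FPKM Fas and Dffb were not tested. Without the filter the log2 fold change of Bak1, TNF against untreated, had an adjusted p of 0.108, and the log2 fold change of Dffb, TNF plus WBG against untreated, also lost its call. With only the 6 libraries compared Bak1 was lost (0.089). No estimate of a called member changed sign. Depth in counts is unknown, and levels under 1 FPKM were not tested.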

Other observations

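Tnfrsf1a, the gene of the main TNF receptor, is not a member but is among the other pathway genes tested, and was picked after its values were seen. It was 36.01, 36.7 and 36.1 FPKM in untreated libraries, 34.7, 56.1 and 56.8 FPKM with TNF, and 35.0, 34.2 and 34.0 FPKM with TNF plus WBG. TNF replicates 2 and 3 stood apart from the other 7 libraries. The gene did not pass for TNF against untreated (log2 0.40, limma adjusted p = 0.167) or for TNF plus WBG against TNF (log2 -0.47, limma adjusted p = 0.482).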
